A study of Mus musculus with 24 samples.

Results

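The 36 genes described here encode the cytosolic aminoacyl-tRNA synthetases and the amino acid genes that respond to the transcription factor ATF4. They were taken by gene symbol from the raw count tables, which list 27179 genes. The rule reads names only, but the list was drawn up with earlier results of these data known. The set holds 20 cytosolic synthetases, 2 ATF factors (Atf4 and Atf5), 6 enzymes of serine, one-carbon and asparagine synthesis, 5 amino acid transporters and 3 targets that act in feedback on the stress response. In naive B cells 35 of the 36 reached 0.5 CPM (counts scaled to library size) in at least 2 libraries and were tested, and Chac1 did not. In both cultures all 36 passed.

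The libraries were RNA-seq of lymph node B cells from C57BL/6 mice aged 6 to 20 weeks, purified by negative selection and, for RNA-seq, sorted as CD3- B220+ CD138-. That sort is meant to remove T cells and CD138+ plasma cells, whereas plasmacytoid dendritic cells also carry B220. They were either naive or cultured for 48 h with CD40L (50 ng/ml) and IL-4 (10 ng/ml), or with LPS (20 µg/ml) and IL-4, and each of the 4 genotypes had 2 libraries at each of the 3 stages, 24 in all. Control cells were Cd23T/+ and so carried the Cre transgene with intact Spi1 and Spib. PU.1 cKO cells were Spi1fl/fl Cd23T/+, SpiB KO cells were Spi1fl/fl Cd23+/+ Spib-/- and thus had no Cre, and PU.1 SpiB DKO cells were Spi1fl/fl Cd23T/+ Spib-/-. Cre was driven by regulatory sequences of Cd23, which act only from the late stages of B cell development, and naive PU.1 SpiB DKO cells kept some of the floxed Spi1 exon. With 2 libraries a group, an exact permutation test of a single value cannot give a p below 0.333, so all tests were edgeR fits across all genes, called at an adjusted p under 0.15.

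Aminoacyl-tRNA synthetases join each amino acid to its tRNA and so supply the ribosome. When amino acids run short or unfolded protein accumulates, kinases phosphorylate the translation factor eIF2, general translation slows and the ATF4 mRNA is translated more. ATF4 then binds C/EBP-ATF elements in the promoters of synthetases, amino acid transporters and the serine and asparagine pathways, and induces Chac1, Trib3 and Sesn2. Activated B cells that grow, divide and prepare to secrete antibody have a high demand for amino acids. Because ATF4 is regulated at translation, the level of its mRNA does not measure the protein.

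The element was searched for as TGATGNAA, on either strand, in the 250 bases before each RefSeq transcript start (build GRCm38.p6). Of the 36 members 27 had a promoter window, and 6 of these (22.2%) held the element, compared with 3.91% of 27025 genes with a window. The 6 are shown because they are the members whose promoters carry the letters of the C/EBP-ATF element. Each line runs 5′ to 3′ on the strand of the gene, and capitals mark TGATGNAA or its reverse complement TTNCATCA.
Aars (chr8:111033700-111033767, plus strand): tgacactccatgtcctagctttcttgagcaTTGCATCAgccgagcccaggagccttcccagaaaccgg
Asns (chr6:7693210-7693262, minus strand): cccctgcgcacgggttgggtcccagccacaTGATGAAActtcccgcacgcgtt
Chac1 (chr2:119351019-119351086, plus strand): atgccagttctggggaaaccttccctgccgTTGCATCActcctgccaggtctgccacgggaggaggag
Gars (chr6:55037941-55038000, plus strand): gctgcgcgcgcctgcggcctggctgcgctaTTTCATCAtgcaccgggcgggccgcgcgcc
Slc7a11 (chr3:50443623-50443709, minus strand): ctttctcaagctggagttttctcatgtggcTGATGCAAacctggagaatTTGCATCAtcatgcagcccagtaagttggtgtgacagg
Tars (chr15:11399659-11399703, minus strand): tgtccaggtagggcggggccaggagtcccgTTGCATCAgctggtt
The match began 15 bases before the start in Tars, 23 in Asns, 30 in Gars, 112 in Aars and 193 in Chac1, and Slc7a11 held 2 matches, at 66 and 47 bases. A match is a description of the letters and no match says only that they are not in this window. No window was at hand for Rars, Wars, Vars, Hars, Lars, Nars, Slc1a5, Cars and Slc7a5.

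Library totals ran from 14231188 to 18194629 counts in naive cells, from 9598674 to 61640683 after CD40L+IL-4 and from 22757630 to 73658850 after LPS+IL-4. After CD40L+IL-4, PU.1 cKO replicate 2 stood alone at the top and the next library had 11434235. Spib was far below control in every SpiB KO and PU.1 SpiB DKO group, with 1472 and 1355 CPM in naive control and 98.8 and 100.4 in naive PU.1 SpiB DKO libraries (replicate 1 then replicate 2, here and throughout). Whole-gene Spi1 counts include exons outside the deletion. After LPS+IL-4 they were 72 and 60.7 CPM in control, 44.2 and 41.2 in PU.1 cKO (log2 fold change -0.63, edgeR adjusted p = 0.00360) and 63.9 and 58.9 in the libraries labelled PU.1 SpiB DKO. Those libraries overlapped control and lay above PU.1 cKO by 0.52 (edgeR adjusted p = 0.00943), so whole-gene Spi1 does not show the deletion their label names. The paper, from read coverage over the floxed exon, reports efficient deletion in the LPS+IL-4 cultures. Coverage of single exons was not examined here, and every PU.1 SpiB DKO result after LPS+IL-4 is subject to this limit. After CD40L+IL-4 Spi1 counts were 84.9 and 108 CPM in control and 32.5 and 25.6 in PU.1 SpiB DKO, which did not overlap. The summed CPM of 10 B cell markers was 8947 to 13180 in naive libraries and 4237 to 9034 and 3501 to 4881 in the cultures. Exons of 9 members overlap another gene, 6 of them (Atf5, Farsb, Hars, Mars, Shmt2 and Yars) a protein-coding gene on the opposite strand, and the strand setting of the counting is not given in the sources used here, so these 6 counts may hold reads of the partner.

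In control B cells most members rose on activation. After CD40L+IL-4, 32 of the 36 were higher than in naive cells, where 32.7% of all genes were, and 1 was lower, where 32% were. Chac1 did not pass the filter in naive cells and entered only through the cultures, and among the 35 members that did pass in naive cells 31 were higher and 1 lower. The median log2 fold change was 0.91 (0.88 over the 35), compared with 0 over all genes. After LPS+IL-4, 34 were higher (39% of all genes) and 0 lower (37.9%), and the median was 1.94, or 33 of the 35 and 1.84 without Chac1. The members not past the test after LPS+IL-4 were Vars and Slc1a5. All 10 of 10 proliferation genes also rose in both cultures, and their part in these changes was not tested. In bulk samples a change in the share of cells and a change in RNA per cell cannot be told apart, nor can the stage be separated from the library preparation and sequencing that went with it.

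Asns, the enzyme that makes asparagine, had the largest change of the members other than Chac1, from 10 and 5 counts in the naive control libraries. It was at 0.762 and 0.372 CPM in naive control libraries, 7.45 and 5.64 after CD40L+IL-4 and 32.2 and 36.1 after LPS+IL-4, on a scale set over all 24 libraries, so the 3 stages did not overlap (± is the SE here and throughout, log2 fold change 3.53 ± 0.39, edgeR adjusted p = 3.01e-07 after CD40L+IL-4 and 5.91 ± 0.34, adjusted p = 2.19e-11, after LPS+IL-4). Those changes are 11.6-fold and 60.1-fold. Psat1, the second enzyme of serine synthesis, was at 62.6 and 41.5, 199 and 172 and 375 and 513 CPM over the same stages (log2 fold change 1.84 ± 0.26, edgeR adjusted p = 5.84e-06, and 3.09 ± 0.26, adjusted p = 4.09e-09). Mthfd2, a mitochondrial folate enzyme, was at 23.1 and 14.2, 95.5 and 101 and 191 and 244 CPM (log2 fold change 2.40 ± 0.21, edgeR adjusted p = 1.88e-08, and 3.55 ± 0.22, adjusted p = 5.24e-11). Every library of either culture was above both naive libraries for these enzymes.

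Eprs, the synthetase for glutamate and proline, rose most among the synthetases, from 50.2 and 74.2 CPM in naive control to 352 and 243 after CD40L+IL-4 and 633 and 704 after LPS+IL-4 (log2 fold change 2.26 ± 0.21, edgeR adjusted p = 2.98e-08, and 3.43 ± 0.22, adjusted p = 7.00e-11). Slc7a5, the large neutral amino acid transporter, was at 59.6 and 49.1, 177 and 136 and 399 and 476 CPM, the stages again not overlapping (1.53 ± 0.18, adjusted p = 1.01e-06, and 3.01 ± 0.19, adjusted p = 7.39e-11). Its partner Slc3a2, the heavy chain of CD98, was the only member to fall after CD40L+IL-4 (162 and 166 CPM in naive and 96.8 and 101 in cultured control libraries, log2 fold change -0.73 ± 0.13, edgeR adjusted p = 8.07e-05), and it was higher after LPS+IL-4 at 207 and 242 CPM (0.45 ± 0.13, adjusted p = 0.00340). Slc7a11, the cystine transporter, was scarce at 0.381 and 0.595 CPM in naive and 1.44 and 4.61 after CD40L+IL-4 (log2 fold change 2.59 ± 0.50, edgeR adjusted p = 0.000205). Chac1, which degrades glutathione, had 2 counts in the naive control libraries together, compared with 58 after CD40L+IL-4 and 252 after LPS+IL-4. The depth-scaled ratios were 35.8 (exact 95% interval 9.46 to 302) and 41.7 (11.4 to 346), which cover counting error only.

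The cultures also differed from each other. 28 members were higher after LPS+IL-4 than after CD40L+IL-4 in control cells (29.8% of all genes) and 2, Atf5 and Sesn2, were lower (29.6%), with a median of 1.0. Atf5 was at 28.6 and 42.6 CPM after CD40L+IL-4 and 26.9 and 26.4 after LPS+IL-4 (log2 fold change -0.42 ± 0.18, edgeR adjusted p = 0.0691), and Sesn2, a leucine sensor, at 27.9 and 25.3 and 17.6 and 15 (log2 fold change -0.71 ± 0.16, edgeR adjusted p = 0.00148). Asns (2.38 ± 0.25) and Slc7a5 (1.48 ± 0.18) had the largest differences outside the synthetases, and among the synthetases Iars, Gars, Lars and Cars had the largest differences, log2 fold changes of 1.59 ± 0.21, 1.47 ± 0.16, 1.46 ± 0.15 and 1.35 ± 0.15. Atf4 mRNA, at 79.9 and 90.4 CPM in naive cells, was at 108 and 78.5 after CD40L+IL-4 (log2 fold change 0.13 ± 0.14, edgeR adjusted p = 0.472), a difference not past the test, and at 176 and 176 after LPS+IL-4 (log2 fold change 1.05 ± 0.14, edgeR adjusted p = 2.28e-06).

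**Figure D1:**
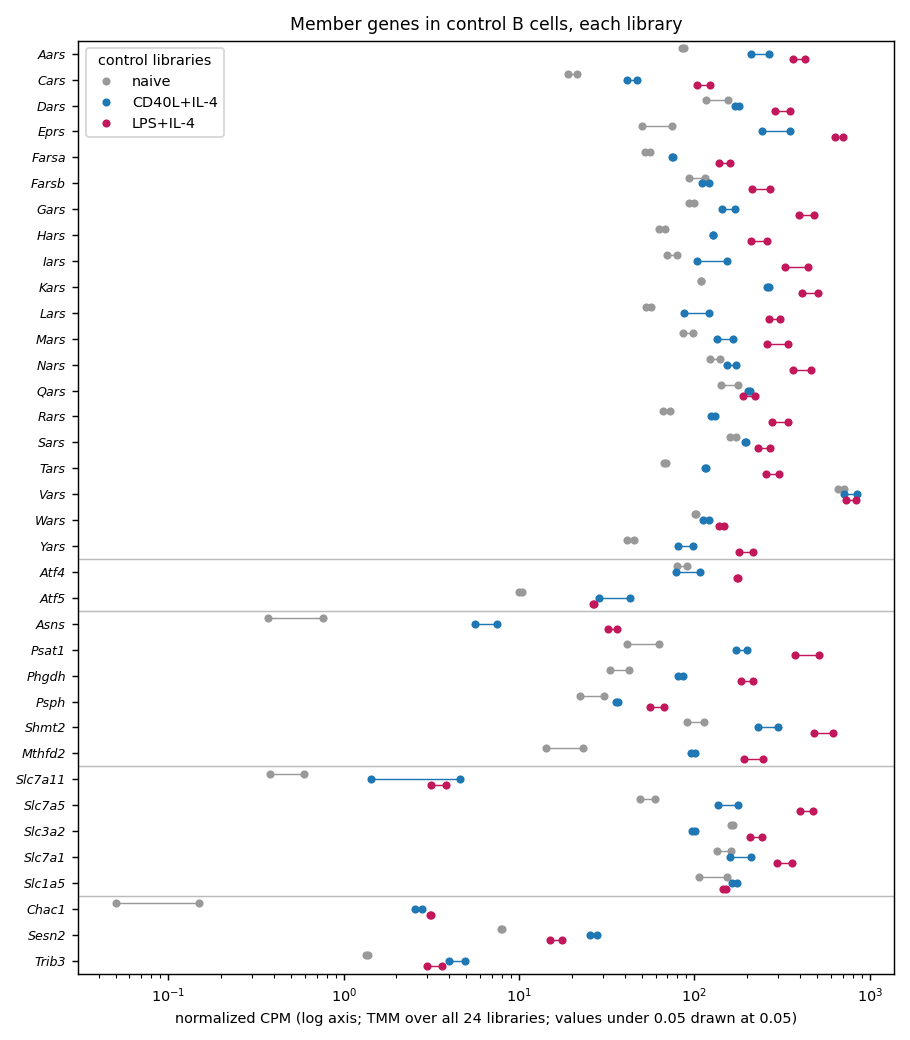
Normalized CPM (log axis) of the 36 members in each control library, 2 points a stage joined by a line, for naive (grey), CD40L+IL-4 (blue) and LPS+IL-4 (red) cells. The red points lie farthest right for most synthetases, while Slc3a2 has its blue points left of the grey ones.

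Levels of different genes were compared per length, as the deposited log2 RPKM in control libraries. In naive cells Vars, the valine synthetase, was highest at a mean of 7.24, above Qars at 5.82, Slc3a2 at 5.75 and Dars at 5.71, whose libraries overlapped. Chac1 (-4.22) and Slc7a11 (-4.01) were lowest and overlapped each other. After CD40L+IL-4, Vars (7.57) was followed by Kars (6.95) and Shmt2 (6.86), and Kars and Shmt2 overlapped between libraries. The LPS+IL-4 table was normalized apart from the others. In it Shmt2 (7.89), Kars (7.74) and Vars (7.57) led, but the libraries of Shmt2 overlapped those of Kars, and those of Vars overlapped those of Gars (7.53).

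In naive cells the number of members past the test depended on the replicate block. The counts given first are from the fit without it, which leaves out the pairing of same-numbered libraries. PU.1 cKO cells had 2 members higher (7.41% of all genes) and 4 lower (9.84%) than control. SpiB KO cells had 1 higher (7.24%) and 2 lower (5.39%), and PU.1 SpiB DKO cells had 5 higher (18.2%) and 4 lower (16.6%), out of 35 tested. The split depended on the scaling, and with library totals alone PU.1 SpiB DKO had 11 higher and 2 lower, PU.1 cKO had 5 and 4, and SpiB KO had 1 and 0. Besides the members described next, Rars was higher and Aars and Cars were lower in PU.1 SpiB DKO. Both shares in PU.1 SpiB DKO were thus below those of all genes in the TMM fit without a block, where the median log2 fold change was 0.07. Within each stage the 3 knockout groups share the same control libraries. PU.1 SpiB DKO cells had 2 members higher than PU.1 cKO cells (11.8% of all genes), Slc7a5 and Mthfd2, and 0 lower (6.29%). By edgeR no member passed the interaction test of the 2 losses in naive cells, where 0.936% of all genes did. At an unadjusted p under 0.05 there were 3, DESeq2 called 1 and limma voom 0. With a replicate block the calls were 12 in PU.1 cKO, 9 in SpiB KO, 16 in PU.1 SpiB DKO, 6 between that group and PU.1 cKO, and 3 for the interaction. The shares of all genes under that block are not given here, so these counts cannot be set against them.

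Slc7a5 had the largest naive PU.1 SpiB DKO change, at 54.8 and 46.9 CPM (control), 78.9 and 82.7 (SpiB KO), 68 and 58.3 (PU.1 cKO) and 97.3 and 97 (PU.1 SpiB DKO), with a log2 fold change of 0.93 ± 0.13 in PU.1 SpiB DKO (edgeR adjusted p = 0.000917). Both PU.1 SpiB DKO libraries were above all other libraries, and SpiB KO was also past the test (0.67 ± 0.12, adjusted p = 0.0142). Atf4 was at 73.5 and 86.5 CPM (control), 66.3 and 64.1 (SpiB KO), 50.3 and 53 (PU.1 cKO) and 52.2 and 58.6 (PU.1 SpiB DKO), highest in the control libraries. It was lower than control in both groups with floxed Spi1 and Cre (for PU.1 cKO, log2 fold change -0.63 ± 0.13, edgeR adjusted p = 0.0177, and -0.53 ± 0.12, adjusted p = 0.0167, for PU.1 SpiB DKO), and in SpiB KO only with the replicate block (log2 fold change -0.29, adjusted p = 0.0699). The PU.1 cKO call was lost without PU.1 cKO replicate 1. Vars was at 603 and 686 CPM (control), 472 and 504 (SpiB KO), 501 and 455 (PU.1 cKO) and 430.1 and 472 (PU.1 SpiB DKO), with a log2 fold change of -0.52 ± 0.12 in PU.1 SpiB DKO (edgeR adjusted p = 0.0139), lower than both control libraries in each knockout group.

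Psph, Shmt2 and Psat1, enzymes of serine and glycine metabolism, rose modestly in naive PU.1 SpiB DKO cells. Psph was at 28 and 21.4 CPM (control), 33.3 and 29.7 (SpiB KO), 30.2 and 27.1 (PU.1 cKO) and 36.7 and 30.7 (PU.1 SpiB DKO), with a log2 fold change of 0.45 ± 0.17 in PU.1 SpiB DKO (edgeR adjusted p = 0.0953). Shmt2 was at 105 and 86.6 CPM (control), 106 and 101 (SpiB KO), 128 and 118 (PU.1 cKO) and 136 and 125 (PU.1 SpiB DKO), with 0.45 ± 0.12 (adjusted p = 0.0288), and Psat1 at 57.6 and 39.7 CPM (control), 50.1 and 49.4 (SpiB KO), 57.6 and 44.8 (PU.1 cKO) and 68.3 and 63.1 (PU.1 SpiB DKO), with 0.43 ± 0.18 (adjusted p = 0.129). In each, both PU.1 SpiB DKO libraries were above both control libraries. None of the 3 passed the test when PU.1 SpiB DKO replicate 1 was left out. Asns, at 0.700 and 0.356 CPM (control), 0.535 and 0.162 (SpiB KO), 0.318 and 0.126 (PU.1 cKO) and 0.308 and 0.527 (PU.1 SpiB DKO), was not past the test in PU.1 SpiB DKO (log2 fold change -0.32 ± 0.74, edgeR adjusted p = 0.795).
Beside these values, the summed CPM of 10 plasmacytoid dendritic cell markers was 407 and 251 (control), 2340 and 1828 (SpiB KO), 377 and 325 (PU.1 cKO) and 2809 and 2479 (PU.1 SpiB DKO), with 9 of 10 tested markers higher for SpiB KO, and 9 for PU.1 SpiB DKO. The T cell marker sum was 331 and 267 (control), 627 and 532 (SpiB KO), 193 and 174 (PU.1 cKO) and 619 and 597 (PU.1 SpiB DKO), with 4 of 9 tested higher for SpiB KO, and 5 for PU.1 SpiB DKO. Cd8a, Cd8b1, Cd4 and Lat were higher in both groups, whereas Cd3d, Cd3g and Thy1 were not past the test in either. Cd2 was lower in PU.1 SpiB DKO (log2 fold change -0.72). Of 12 macrophage markers, 3 of 6 tested were higher in PU.1 SpiB DKO. Of the plasma cell markers Sdc1 (log2 fold change 1.38), Prdm1 (0.98), Mzb1 (0.78), Ell2 (0.62) and Cd28 (3.46) were higher in that group. Xbp1, Irf4, Igj and Slamf7 were not past the test. Of the B cell markers Ms4a1 (-0.67), Cd79b (-0.32) and Fcer2a (-2.99) were lower, and the others were not past the test. The part of all these markers in the naive results was not tested.
Leaving out control replicate 1 gave 14 calls in PU.1 SpiB DKO and 7 in SpiB KO, and leaving out PU.1 SpiB DKO replicate 1 gave 3 in PU.1 SpiB DKO. PU.1 cKO had 1 call without PU.1 cKO replicate 1 and 2 without replicate 2. SpiB KO had 1 without each of the other control and SpiB KO libraries, and the comparison of PU.1 SpiB DKO with PU.1 cKO had 1 without PU.1 cKO replicate 1 or either PU.1 SpiB DKO library.

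After CD40L+IL-4 every member past the test was higher in the groups with floxed Spi1 and Cre, under each scaling tried. 10 of the 36 were higher in PU.1 cKO than in control (7.81% of all genes) and 0 lower (8.84%), with a median log2 fold change of 0.37. In PU.1 SpiB DKO cells 11 were higher (12.5%) and 0 lower (12.7%), with a median of 0.38 compared with 0.002 over all genes. In PU.1 SpiB DKO the higher members were 6 of the 20 synthetases, 1 of the 2 ATF factors, 2 of the 6 serine, one-carbon and asparagine genes, 2 of the 5 transporters and 0 of the 3 feedback targets. By name these were Cars, Farsa, Gars, Nars, Rars, Tars, Atf5, Asns, Psph, Slc7a5 and Slc3a2. In PU.1 cKO they were Cars, Farsa, Gars, Nars, Wars, Atf4, Asns, Slc7a5, Slc3a2 and Sesn2. SpiB KO cells had 0 members past the test, where 0.134% of all genes passed, 1 at an unadjusted p under 0.05 and 0 by DESeq2 and limma voom. Set against PU.1 cKO, the PU.1 SpiB DKO cells had 1 member higher, Atf5 (2.31%), and 0 lower (1.92%), and 0 passed the interaction test, where 1.17% of all genes did (2 at an unadjusted p under 0.05, and 0 by DESeq2 and limma voom).

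Atf5, a relative of ATF4 that is also induced when eIF2 is phosphorylated, was at 29.7 and 43.6 CPM (control), 58.8 and 52.5 (SpiB KO), 22.5 and 29.5 (PU.1 cKO) and 74 and 62.5 (PU.1 SpiB DKO). Both PU.1 SpiB DKO libraries were above all others, and the PU.1 cKO libraries were below control (log2 fold change 0.90 ± 0.21, edgeR adjusted p = 0.0178, and 1.38 ± 0.21, adjusted p = 0.00802, against PU.1 cKO). Il4i1, an IL-4-induced amino acid oxidase whose gene overlaps Atf5 on the opposite strand, had log2 fold changes of 0.29 in PU.1 SpiB DKO against control and 1.64 against PU.1 cKO, and the part of its reads in the Atf5 counts was not tested. Nup62 also overlaps Atf5 on the opposite strand, and its part was not tested either. Atf4 was at 111 and 80.3 CPM (control), 86.4 and 97.3 (SpiB KO), 141 and 125 (PU.1 cKO) and 133 and 120.3 (PU.1 SpiB DKO), the libraries of both groups with Cre and floxed Spi1 above both control libraries (for PU.1 cKO, log2 fold change 0.47 ± 0.18, edgeR adjusted p = 0.149, 0.40 ± 0.18, adjusted p = 0.178, for PU.1 SpiB DKO). The PU.1 SpiB DKO value passed the test only under some alternatives, and the PU.1 cKO call was lost without PU.1 cKO replicate 1 or replicate 2, or control replicate 2.

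Asns was at 7.72 and 5.76 CPM (control), 4.24 and 6.93 (SpiB KO), 11.8 and 15.1 (PU.1 cKO) and 10.7 and 14.4 (PU.1 SpiB DKO), above both control libraries in each library of both groups with floxed Spi1 and Cre (for PU.1 cKO, log2 fold change 1.01 ± 0.29, edgeR adjusted p = 0.0551, and 0.89 ± 0.29, adjusted p = 0.0721, for PU.1 SpiB DKO). Slc7a5 was at 184 and 139 CPM (control), 117 and 188 (SpiB KO), 264 and 288 (PU.1 cKO) and 253 and 313 (PU.1 SpiB DKO), with a log2 fold change of 0.81 ± 0.23 in PU.1 SpiB DKO (edgeR adjusted p = 0.0397). Its partner Slc3a2 was at 100.3 and 104 CPM (control), 94.1 and 101 (SpiB KO), 126 and 142 (PU.1 cKO) and 149.9 and 167 (PU.1 SpiB DKO), with a log2 fold change of 0.64 ± 0.15 in PU.1 SpiB DKO (edgeR adjusted p = 0.0181). The PU.1 SpiB DKO libraries exceeded both control libraries in these 3 genes, and Asns and Slc7a5 lost their PU.1 SpiB DKO calls when control replicate 2 or PU.1 SpiB DKO replicate 2 was left out. Asns also lost its PU.1 cKO call without control replicate 2 or PU.1 cKO replicate 2.
Among the synthetases Cars, for cysteine, was at 49.1 and 42.1 CPM (control), 44.2 and 55.8 (SpiB KO), 66.9 and 69.6 (PU.1 cKO) and 68 and 79.5 (PU.1 SpiB DKO), with a log2 fold change of 0.69 ± 0.17 in PU.1 SpiB DKO (edgeR adjusted p = 0.0218). Nars, for asparagine, was at 179 and 157 CPM (control), 139 and 199.6 (SpiB KO), 238 and 268 (PU.1 cKO) and 236 and 287 (PU.1 SpiB DKO), with a log2 fold change of 0.64 ± 0.19 in PU.1 SpiB DKO (edgeR adjusted p = 0.0547). Gars, for glycine, which carries the element at its start, was at 177 and 147 in control and 218 and 269.6 in PU.1 SpiB DKO libraries, and like Cars and Nars it was higher in both groups with floxed Spi1 and Cre. It is named beyond the stated rule, after its values were seen. The Nars call was lost without control replicate 2 or PU.1 SpiB DKO replicate 2. The summed CPM of the 20 synthetases was 4065 and 3492 (control), 3256 and 4044 (SpiB KO), 4496 and 4713 (PU.1 cKO) and 4091 and 4837 (PU.1 SpiB DKO). The PU.1 cKO libraries were above both control libraries and SpiB KO overlapped control. PU.1 SpiB DKO replicate 1 (4091) was almost level with control replicate 1 (4065), so that group was barely apart from control.

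**Figure D2:**
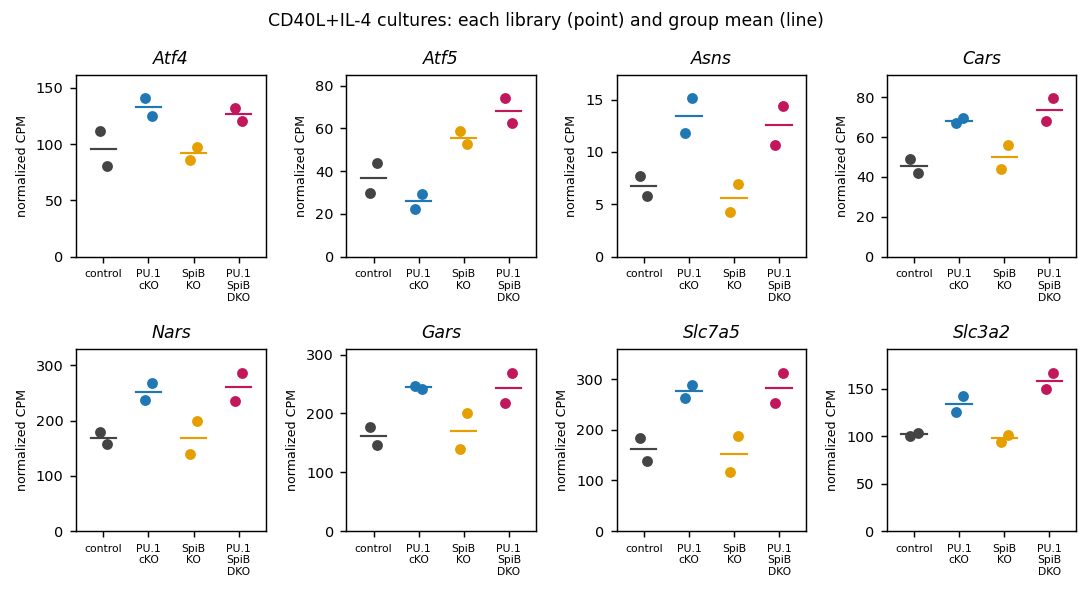
Normalized CPM of 8 members in each library of the CD40L+IL-4 cultures (points) with the group mean (line), vertical axes from 0. The points of both groups with floxed Spi1 and Cre lie above the control points in Asns, Cars, Nars, Gars, Slc7a5 and Slc3a2, and in Atf5 the SpiB KO and PU.1 SpiB DKO points do.

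The plasma cell markers also differed here. The sum of 10 markers was 1965 and 2282 CPM (control), 1964 and 2636 (SpiB KO), 3410.5 and 3705 (PU.1 cKO) and 4598 and 4686 (PU.1 SpiB DKO), with 8 of 10 higher in PU.1 SpiB DKO, while 6 of 10 B cell markers were lower. Cells had been sorted as CD138-, and Sdc1, which encodes CD138, was at 4.30 and 4.19 CPM in control and 19.5 and 17.4 in PU.1 SpiB DKO libraries. The part of plasma cell gene expression in the member changes was not tested. The counts moved when single libraries were left out. PU.1 cKO had 0 calls without PU.1 cKO replicate 2, 1 without control replicate 2 and 4 without PU.1 cKO replicate 1, and PU.1 SpiB DKO had 3 calls without control replicate 2 and 3 without PU.1 SpiB DKO replicate 2. At an adjusted p under 0.05 there were 0 calls in PU.1 cKO and 4 in PU.1 SpiB DKO. Other settings gave more calls. With all 24 libraries fitted together PU.1 cKO had 22 and the double knockout 21, with no filter on low counts each had 17, and with the replicate block 18 for PU.1 cKO.

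After LPS+IL-4 most members past the test were lower in the libraries labelled PU.1 SpiB DKO, under each scaling tried. 23 members were lower (22.4% of all genes) and 5 higher (25.6%) than control, with a median log2 fold change of -0.25. Lower were 16 of 20 synthetases, 4 of 6 serine, one-carbon and asparagine genes and 3 of 5 transporters (Slc7a5, Slc3a2 and Slc7a1), while Atf5, Chac1, Sesn2, Trib3 and Slc1a5 were higher. Among the lower members Mthfd2 had the largest change (-0.65) and was the only one of them past a fold of 1.5. The other 4 of the 5 members past that fold were higher, namely Trib3 (1.44), Atf5 (0.83), Sesn2 (0.71) and Chac1 (0.62). PU.1 cKO cells had 3 members higher (11.2% of all genes), Asns, Sesn2 and Trib3, and 0 lower (7.8%). SpiB KO cells had 0 higher (3.65%) and 0 lower (1.48%), by edgeR, with 5 at an unadjusted p under 0.05, 0 by DESeq2, 1 by limma voom, 7 with the replicate block and 8 without control replicate 1. PU.1 SpiB DKO had 2 members, Atf5 and Slc1a5, higher (19.5%) and 24 lower (16.8%) than PU.1 cKO. The interaction test was passed by 1 member, Atf5 (1.48% of all genes), and by 7 with the replicate block.

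The synthetases not past the test in PU.1 SpiB DKO were Qars, Sars, Vars and Wars. Lars, for leucine, also named after its values were seen, was at 277 and 311 CPM (control), 257 and 246 (SpiB KO), 280.2 and 280.2 (PU.1 cKO) and 219 and 212 (PU.1 SpiB DKO), the PU.1 SpiB DKO libraries below all others (log2 fold change -0.45 ± 0.08, edgeR adjusted p = 0.00281). Mthfd2 was at 199.6 and 247 CPM (control), 183 and 181 (SpiB KO), 192 and 206 (PU.1 cKO) and 137 and 149 (PU.1 SpiB DKO), with a log2 fold change of -0.65 ± 0.11 in PU.1 SpiB DKO (edgeR adjusted p = 0.00164), and Psat1 at 391 and 519 CPM (control), 349 and 377 (SpiB KO), 410.4 and 465 (PU.1 cKO) and 302 and 343 (PU.1 SpiB DKO), with a log2 fold change of -0.50 ± 0.13 in PU.1 SpiB DKO (edgeR adjusted p = 0.0184), with the PU.1 SpiB DKO libraries lowest in both. The synthetase sum was 6228 and 7243 (control), 6143 and 6248 (SpiB KO), 6698 and 6960.4 (PU.1 cKO) and 5466 and 5822 (PU.1 SpiB DKO), lowest in PU.1 SpiB DKO, which did not overlap control. Asns did not follow. It was at 33.6 and 36.6 CPM (control), 34.6 and 29.7 (SpiB KO), 55.2 and 56.6 (PU.1 cKO) and 34.9 and 32.6 (PU.1 SpiB DKO), higher in PU.1 cKO (log2 fold change 0.67 ± 0.10, edgeR adjusted p = 0.00291) and not past the test in PU.1 SpiB DKO (-0.06 ± 0.11, adjusted p = 0.724).
Atf4 itself, at 183 and 179 CPM (control), 187 and 148 (SpiB KO), 202 and 197 (PU.1 cKO) and 185 and 164 (PU.1 SpiB DKO), was not past the test in any knockout (for PU.1 SpiB DKO, log2 fold change -0.05 ± 0.11, edgeR adjusted p = 0.756).

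All 3 stress feedback genes were higher in the libraries labelled PU.1 SpiB DKO. Trib3, a pseudokinase induced by ATF4, was at 3.11 and 3.67 CPM (control), 2.95 and 3.73 (SpiB KO), 6.40 and 10.7 (PU.1 cKO) and 8.82 and 9.74 (PU.1 SpiB DKO), with a log2 fold change of 1.44 ± 0.25 in PU.1 SpiB DKO (edgeR adjusted p = 0.00238), both groups with floxed Spi1 and Cre lying above control and SpiB KO. Sesn2 was at 18.3 and 15.2 CPM (control), 16.6 and 15.6 (SpiB KO), 27.2 and 26.8 (PU.1 cKO) and 30.1 and 24.3 (PU.1 SpiB DKO), with a log2 fold change of 0.71 ± 0.13 in PU.1 SpiB DKO (edgeR adjusted p = 0.00354). Chac1 was at 3.24 and 3.19 CPM (control), 3.02 and 2.13 (SpiB KO), 3.82 and 3.44 (PU.1 cKO) and 4.93 and 4.93 (PU.1 SpiB DKO), with a log2 fold change of 0.62 ± 0.21 in PU.1 SpiB DKO (edgeR adjusted p = 0.0438), a call lost without control replicate 2.
Atf5 was at 28.1 and 26.7 CPM (control), 31.5 and 34.2 (SpiB KO), 26.2 and 26.6 (PU.1 cKO) and 49.1 and 47.9 (PU.1 SpiB DKO), with a log2 fold change of 0.83 ± 0.09 in PU.1 SpiB DKO (edgeR adjusted p = 0.000193), highest in PU.1 SpiB DKO. Its interaction (0.62 ± 0.13, adjusted p = 0.103) kept its direction under every alternative run and its call when control replicate 2 was left out, when 5 members passed, and lost the call without each of the other 7 libraries and in a fit of all 24. Il4i1 had a log2 fold change of 1.12 in PU.1 SpiB DKO relative to the PU.1 cKO, and its value against control is not given here. The part of Il4i1 and Nup62 reads in the Atf5 counts was not tested.
Plasma cell markers summed to 1305 and 1414 CPM (control), 1400.3 and 1499 (SpiB KO), 2203 and 2446 (PU.1 cKO) and 3189.7 and 3102 (PU.1 SpiB DKO), 8 of 9 tested being higher in PU.1 SpiB DKO. These cells too had been sorted as CD138-, Sdc1 was at 8.56 and 7.60 CPM in control and 8.27 and 7.60 in PU.1 SpiB DKO libraries, and the markers' part was not tested. The number of calls in PU.1 SpiB DKO was 12 without PU.1 SpiB DKO replicate 1 and 11 without control replicate 2. Against PU.1 cKO it was 9 and 6 without PU.1 SpiB DKO replicate 1 and PU.1 cKO replicate 2.

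**Figure D3:**
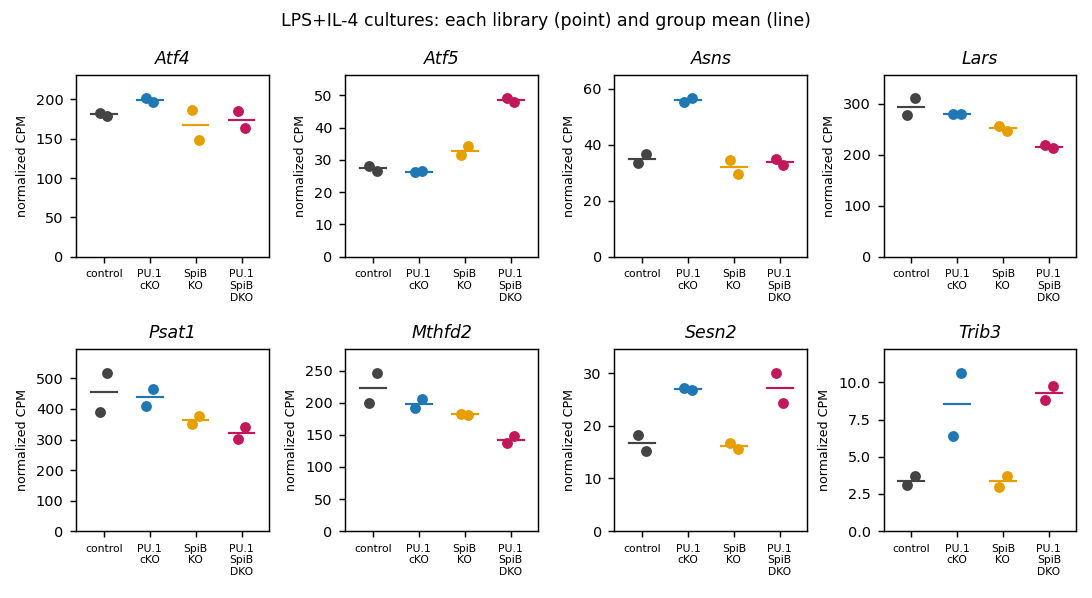
Normalized CPM of 8 members in each library of the LPS+IL-4 cultures (points) with the group mean (line), vertical axes from 0. Lars, Psat1 and Mthfd2 are lowest in the PU.1 SpiB DKO libraries, whereas Atf5 is highest there and Sesn2 and Trib3 are higher in both groups with floxed Spi1 and Cre than in control.

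**Figure D4:**
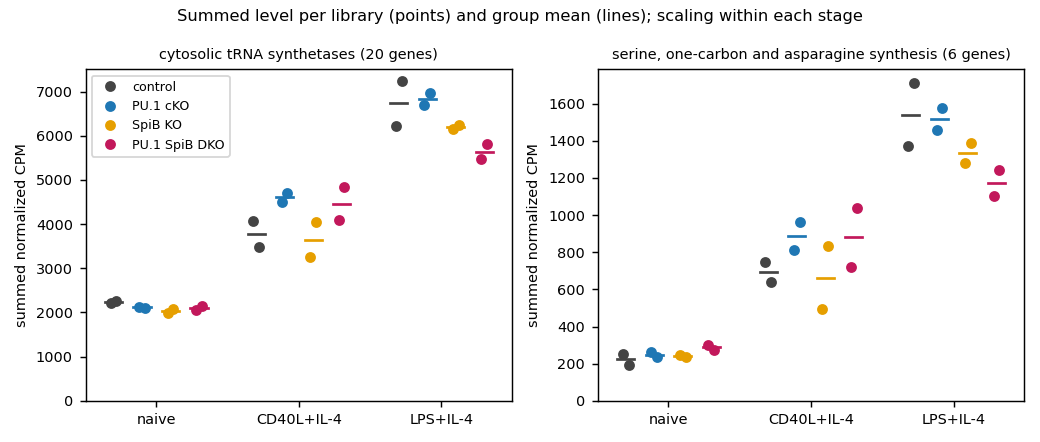
Summed normalized CPM of the synthetases (left) and of the serine, one-carbon and asparagine genes (right) in each library (points) with the group mean (lines), scaled within each stage, vertical axes from 0. After LPS+IL-4 the points of the libraries labelled PU.1 SpiB DKO lie below the control points.

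The PU.1 SpiB DKO effect was then compared between stages in a fit over all libraries. The LPS+IL-4 side carries the Spi1 limit given above. The naive side has its own, as naive PU.1 SpiB DKO cells kept some of the floxed exon. Naive whole-gene Spi1 was at 155 and 174 CPM (control), 59.5 and 53.25 (PU.1 cKO) and 103 and 110 (PU.1 SpiB DKO). It was higher in PU.1 SpiB DKO than in PU.1 cKO (log2 fold change 0.92, edgeR adjusted p = 0.000571). The part of this Spi1 retention in the PU.1 SpiB DKO effect was not tested. The effect was higher after CD40L+IL-4 than in naive cells for 9 members (7.16% of all genes) and lower for 0 (9.62%). The members were Aars, Cars, Gars, Nars, Tars and Vars among the synthetases, Atf4, Atf5 and Slc3a2. The differences of log2 fold changes were 0.94 ± 0.20 in Atf4 (edgeR adjusted p = 0.00485), 1.13 ± 0.21 in Cars (adjusted p = 0.00158) and 0.86 ± 0.18 in Slc3a2 (adjusted p = 0.00354). Those of Atf5, Nars and Aars were 1.38 ± 0.28, 0.69 ± 0.22 and 0.60 ± 0.20, of which Nars and Aars lost the call without CD40L+IL-4 control replicate 2 or PU.1 SpiB DKO replicate 2. The effect was lower after LPS+IL-4 than after CD40L+IL-4 for 24 members (15% of all genes), higher for 0 (13.6%), with a median of -0.67. The 6 with the lowest adjusted p were Slc3a2 (-0.97 ± 0.18, adjusted p = 0.00199), Farsa (-0.88 ± 0.18), Cars (-1.0 ± 0.20), Slc7a5 (-1.20 ± 0.25), Tars (-0.94 ± 0.20) and Rars (-1.01 ± 0.22, adjusted p = 0.00605). The 24 became 14 without CD40L+IL-4 PU.1 SpiB DKO replicate 2 and 10 without LPS+IL-4 control replicate 2, and the 9 became 4 without CD40L+IL-4 control replicate 2 or PU.1 SpiB DKO replicate 2 and 5 without naive PU.1 SpiB DKO replicate 1.

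**Figure D5:**
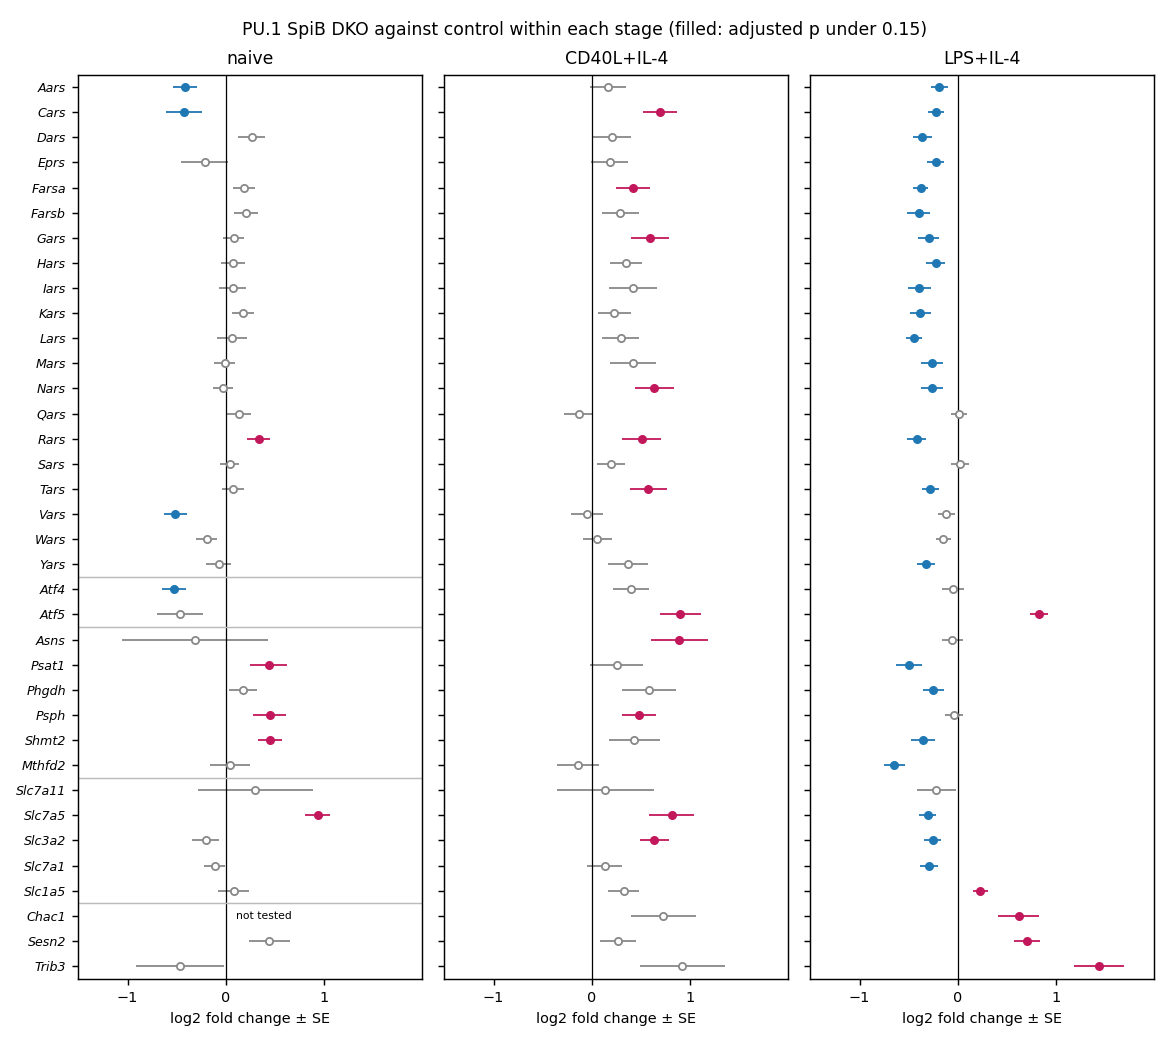
Log2 fold change ± SE of each member in PU.1 SpiB DKO against control in naive, CD40L+IL-4 and LPS+IL-4 cells, filled where the adjusted p was under 0.15, red for higher and blue for lower. The filled points lie right of 0 in the middle panel and mostly left of 0 in the right panel, where Atf5, Chac1, Sesn2, Trib3 and Slc1a5 are the exceptions, and Chac1 was not tested in naive cells.

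Of the members with the element in their window, 3 of 6 were higher in PU.1 SpiB DKO after CD40L+IL-4, compared with 4 of 21 without it and 4 of the 9 with no window (12.5% of all genes). After LPS+IL-4, 3 of 6 with it, 14 of 21 without it and 6 of the 9 with no window were lower (22.4%). In control cells after CD40L+IL-4, 5 of the 5 that passed the filter in naive cells, 18 of 21 and 8 of 9 were higher than in naive cells (32.7%).

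Other genes of the pathway were read in the same fits, and the values given for them are log2 fold changes unless given in CPM. In PU.1 SpiB DKO after CD40L+IL-4, 1 of 17 mitochondrial tRNA synthetases, Mars2 (0.78 ± 0.19), was higher (12.5% of all genes) and 0 lower (12.7%), and Yars2 was at 0.53 ± 0.24. After LPS+IL-4 8 were lower (22.4% of all genes). Of 3 scaffold proteins of the synthetase complex 1, Aimp2 (0.67 ± 0.27), was higher after CD40L+IL-4, with Eef1e1 at 0.54 ± 0.24 and Aimp1 at 0.04 ± 0.17, and 3 were lower after LPS+IL-4, where Aimp2 was at log2 fold change -0.54 ± 0.12, edgeR adjusted p = 0.00856. The list of 7 eIF2 genes holds kinases, phosphatase subunits and Eif2s1, a subunit of eIF2 itself. Of these 1, Eif2s1 (0.49 ± 0.19), was higher and 1, the kinase Eif2ak4, lower after CD40L+IL-4, and Eif2ak2 was at -0.54 ± 0.27. Of 23 tested other ATF4 pathway genes 4 were higher and 1 lower after CD40L+IL-4, beside 12.5% and 12.7% of all genes. After LPS+IL-4 6 were higher (25.6%) and 12 lower (22.4%), as were 1 and 3 of the 7 eIF2 genes. The next 2 genes are given after CD40L+IL-4. Bcat1, which starts the breakdown of branched-chain amino acids, was at 8.51 and 5.24 CPM (control), 8.58 and 13 (SpiB KO), 18.5 and 24.3 (PU.1 cKO) and 22.8 and 30.4 (PU.1 SpiB DKO), with a log2 fold change of 1.94 ± 0.29 in PU.1 SpiB DKO (edgeR adjusted p = 0.00153). Cebpb, a partner of ATF4, was at 5.44 and 6.60 CPM (control), 5.03 and 5.20 (SpiB KO), 13.7 and 13 (PU.1 cKO) and 17.3 and 14 (PU.1 SpiB DKO), with 1.38 ± 0.23 in PU.1 SpiB DKO (adjusted p = 0.00261). In naive cells Cebpb was lower in all 3 knockout groups, at 14.6 and 14.6 CPM (control), 6.72 and 7.71 (SpiB KO), 5.92 and 10.1 (PU.1 cKO) and 6.15 and 6.22 (PU.1 SpiB DKO), with -1.24 ± 0.25 in PU.1 SpiB DKO (adjusted p = 0.00792), as was Ppp1r15a, a phosphatase subunit that reverses eIF2 phosphorylation (-1.84 ± 0.27, adjusted p = 0.00152). These naive values were chosen after they were seen. After CD40L+IL-4 Eif2ak4, the amino acid sensing kinase, was at 32.1 and 25.6 CPM in control and 20.3 and 18.7 in PU.1 SpiB DKO libraries (log2 fold change -0.57 ± 0.20, edgeR adjusted p = 0.0838). In the same culture mitochondrial Lars2 was at 1462 and 436 in control and 5247 and 558 in PU.1 SpiB DKO libraries, which overlapped (log2 fold change 1.61 ± 0.76, edgeR adjusted p = 0.193). Cbs, at 0.0878 and 0.314 CPM in control and 0.432 and 1.24 in PU.1 SpiB DKO, was not past the test (2.09 ± 1.09).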

How the data were processed

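RNA-seq was made with the TruSeq RNA kit from B cells purified by negative selection and sorted as CD3- B220+ CD138-, 2 libraries per genotype and stage. The authors aligned reads to GRCm38/mm10 with Subread and counted them over RefSeq exons with featureCounts, giving the deposited counts per gene (not normalized). The authors also deposited log2 RPKM, with naive and CD40L+IL-4 libraries in the same tables and LPS+IL-4 apart; these were used only for levels of different genes. The strand setting and tool versions are not given in the sources used here. One extraction protocol, for CD40L+IL-4 cells, stands with every sample in the labels.

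Samples were grouped by the labels. Of 27179 genes, 517 had no symbol (0.162% of counts), and these stayed in the fits where they passed the filter. Genes with 0.5 CPM or more in at least 2 libraries were kept, per stage or, between stages, over all 24. Counts were scaled by TMM and fitted with edgeR 4.0.16 (quasi-likelihood, R 4.3.3) over the 8 libraries of a stage, or all 24 between stages, with Benjamini-Hochberg adjustment over all genes and a threshold of 0.15. Limma 3.58.1, DESeq2 1.42.0, other scalings, filters, thresholds, a replicate block and leaving out each library were alternatives. The test was checked on simulated counts. Same-numbered libraries deviated together in naive (correlations 0.139 to 0.327) and LPS+IL-4 cells (0.409 to 0.573), which pairs them. This was not so in every CD40L+IL-4 pair (-0.0603 to 0.352). The labels give only the number. The main fits used no replicate block, so in naive and LPS+IL-4 cells they leave this pairing out. The counts that moved with the block are given below. The libraries of a group are biological replicates, but whether from separate mice is not given, so p-values measure only the spread between these libraries.

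The named genes were, with every library, Atf4 and Asns in each stage, the 6 members with the largest PU.1 SpiB DKO change past the test in each stage, and with every control library those with the 6 largest changes between control stages, and members past an interaction test. Named with their differences were up to 6 members whose effect differed between stages, and up to 3 genes of each other list. Members and lists were chosen with earlier results of these data known. Element matches were found in RefSeq promoter windows with Python 3.11.15.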

Additional observations from a re-analysis of the deposited data

Results flagged for a closer look

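The PU.1 SpiB DKO effect differed between stages for 33 results, each by an edgeR test of the difference itself over all 24 libraries. Stage and the library preparation and sequencing that went with it cannot be told apart. Nor can stage be told apart from the floxed Spi1 exon kept in naive PU.1 SpiB DKO cells. After CD40L+IL-4 minus naive, the difference of log2 fold changes was 0.60 for Aars, 1.13 for Cars, 0.53 for Gars, 0.69 for Nars, 0.52 for Tars, 0.48 for Vars, 0.94 for Atf4, 1.38 for Atf5 and 0.86 for Slc3a2.

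A positive difference can come at least in part from a negative naive value, as for Vars, Atf4, Aars and Cars. These were lower than control in naive PU.1 SpiB DKO cells, and of them only Cars was also past the test after CD40L+IL-4. After LPS+IL-4, where whole-gene Spi1 counts in the libraries labelled PU.1 SpiB DKO overlapped control, the effect was below that after CD40L+IL-4, with differences of log2 fold changes of -0.44 for Aars, -1.0 for Cars, -0.65 for Dars, -0.88 for Farsa, -0.77 for Farsb, -0.97 for Gars, -0.65 for Hars, -0.90 for Iars, -0.69 for Kars, -0.83 for Lars, -0.77 for Mars and -0.99 for Nars. For the other 12 members the differences were -1.01 for Rars, -0.94 for Tars, -0.77 for Yars, -0.54 for Atf4, -1.03 for Asns, -0.83 for Psat1, -0.91 for Phgdh, -0.60 for Psph, -0.87 for Shmt2, -1.20 for Slc7a5, -0.97 for Slc3a2 and -0.51 for Slc7a1.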

How the results depend on the processing

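Counts below are members past the test, and the changes with the choice of fit had no cause tested except where fewer libraries were used. No direction of a named result reversed: of the alternatives run on 65 named results, 746 kept direction and side of the threshold, 45 lost the call, 7 gained it and 2 untested values moved by more than their spread. The depth limits Chac1, Asns and Slc7a11 in naive cells, which had few counts.

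With the replicate block, naive counts were 12 in PU.1 cKO, 9 in SpiB KO, 16 in PU.1 SpiB DKO, 6 in PU.1 SpiB DKO relative to the PU.1 cKO and 3 for the interaction. Under the same block they were 7 in LPS+IL-4 SpiB KO and 7 for the LPS+IL-4 interaction, and after CD40L+IL-4, where the numbers were not shown to pair the libraries, 18 in PU.1 cKO and 2 for the PU.1 SpiB DKO relative to it. The other counts under the block stayed within 1.5 times, and Atf4 in naive SpiB KO (-0.29) and CD40L+IL-4 PU.1 SpiB DKO (0.41) gained a call.

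DESeq2 gave 1 for naive PU.1 SpiB DKO relative to the PU.1 cKO (also 1 with DESeq2 size factors), 1 for the naive interaction and 2 for the LPS+IL-4 interaction. Limma voom gave 14 for naive PU.1 SpiB DKO, 1 relative to PU.1 cKO, 1 for LPS+IL-4 SpiB KO and 2 for that interaction. Library totals alone gave 1 for naive SpiB KO and 5 for the difference of effect between CD40L+IL-4 and naive cells. With no filter on low counts there were 17 in CD40L+IL-4 PU.1 cKO cells, 17 in the PU.1 SpiB DKO, 1 in SpiB KO, 3 in LPS+IL-4 SpiB KO and 2 for each of the naive and LPS+IL-4 interactions. With only the groups compared, there were 1 in naive SpiB KO, 5 in naive PU.1 SpiB DKO, 4 relative to PU.1 cKO and 5 for the CD40L+IL-4 minus naive effect.

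In one fit of all 24 libraries there were 22 in CD40L+IL-4 PU.1 cKO cells, 21 in the PU.1 SpiB DKO, 2 between them, 1 for the CD40L+IL-4 interaction, 0 for that of LPS+IL-4, 16 for LPS+IL-4 PU.1 SpiB DKO relative to the PU.1 cKO and 4 for the same in naive cells. At an adjusted p under 0.05 they were, in naive cells, 2 in PU.1 cKO, 1 in SpiB KO, 5 in PU.1 SpiB DKO and 1 relative to PU.1 cKO. In cultures they were 0 in CD40L+IL-4 PU.1 cKO cells, 4 in the PU.1 SpiB DKO, 16 in LPS+IL-4 PU.1 SpiB DKO relative to the PU.1 cKO and 0 for the LPS+IL-4 interaction, and 4 and 15 for the differences of effect of CD40L+IL-4 from naive and of LPS+IL-4 from CD40L+IL-4. With a fold over 1.5 as well they were 3, 1, 1 and 1 in the 4 naive comparisons in that order, 4 in CD40L+IL-4 PU.1 cKO cells, 7 in the PU.1 SpiB DKO, 5 in LPS+IL-4 PU.1 SpiB DKO and 2 against PU.1 cKO.

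Leaving out each library in turn gave, in naive cells, 1 to 9 in PU.1 cKO cells, 1 to 7 in SpiB KO, 3 to 14 in PU.1 SpiB DKO, 1 to 2 relative to PU.1 cKO and 0 to 1 for the interaction (1 without control replicate 1). After CD40L+IL-4 it gave 0 to 8 in PU.1 cKO cells and 3 to 12 in PU.1 SpiB DKO, and after LPS+IL-4 0 to 8 in SpiB KO, 11 to 29 in PU.1 SpiB DKO, 6 to 23 relative to PU.1 cKO and 0 to 5 for the interaction. The differences of effect ranged from 4 to 12 and from 10 to 26, and the control stages from 25 to 34, 34 to 35 and 27 to 30. Where leaving out a library left 1 in a group, that library was assumed to vary like the other groups.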
